A study of Mus musculus with 238 samples.

Results

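The genes described here encode the proteasome, and they were taken from the count table by symbol: every row beginning with Psma, Psmb, Psmc, Psmd, Psme or Psmf followed by a digit. The rule found 46 of 21076 gene rows. They comprise 7 alpha and 7 beta genes of the constitutive 20S core, 3 immunoproteasome genes (Psmb8, Psmb9 and Psmb10), 2 tissue-specific core genes (Psma8 of testis and Psmb11 of thymus), and 6 ATPase and 11 non-ATPase genes of the 19S regulatory particle. The remaining members are 3 chaperones of 19S assembly (Psmd5, Psmd9 and Psmd10), 5 genes of activators (Psme1, Psme2, its near copy Psme2b, Psme3 and Psme4), the inhibitor gene Psmf1, and Psmc3ip, a cofactor of meiotic recombination that the rule takes by its symbol but that is no subunit. The mRNA was sequenced in 15 brain regions, and in liver, of C57BL/6JN mice aged 19 months. In the diet experiment, 5 females on dietary restriction (labelled aDR, and DR for their livers) were compared with 4 females fed ad libitum (AL), in 131 brain and 9 liver libraries. In the plasma experiment, 3 males given young mouse plasma (YMP) by retro-orbital injection were compared with 4 males given saline (PBS), in 98 brain libraries. A region had 2 to 5 libraries per treatment, 1 per mouse, and the mouse numbers follow each animal through its regions. Sex and experiment go together, so no difference between the experiments can be assigned to treatment.

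The proteasome degrades proteins that carry ubiquitin chains. Its 20S core is a barrel of alpha rings, which gate the entry, and beta rings, which hold the proteases encoded by Psmb5, Psmb6 and Psmb7. The 19S particle on the end of the barrel binds ubiquitin, removes it and unfolds the substrate with its ring of ATPases. Under interferon, and constantly in immune cells, Psmb8, Psmb9 and Psmb10 replace Psmb5, Psmb6 and Psmb7 respectively to form the immunoproteasome, which makes peptides for MHC class I. PA28, built from Psme1 and Psme2, is an interferon-induced cap on the same barrel, while Psme3 forms a nuclear relative of it and Psme4 forms the nuclear cap PA200. In brain, neurons carry mainly the constitutive core, and immunoproteasome subunits are known mainly from microglia and other glia.

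The promoters of 5 genes are shown because constitutive core genes and interferon-inducible genes took different courses across tissues. Each covers 250 bases before the RefSeq start to 50 bases after it, 5′ to 3′ on the gene's strand, in build GRCm38.p6. Capitals mark a match to any of 3 motifs named after the sequences. CCAAT was searched too, found in 15 of 39 members' promoters and 37.4% of all promoters on either strand, and is not marked.
Psmb9: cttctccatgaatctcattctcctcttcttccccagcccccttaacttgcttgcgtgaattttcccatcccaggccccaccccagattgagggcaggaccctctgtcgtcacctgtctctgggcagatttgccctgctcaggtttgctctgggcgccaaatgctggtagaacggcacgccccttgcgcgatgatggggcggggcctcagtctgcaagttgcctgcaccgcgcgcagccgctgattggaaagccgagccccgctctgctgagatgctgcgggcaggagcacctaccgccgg
Psmb8: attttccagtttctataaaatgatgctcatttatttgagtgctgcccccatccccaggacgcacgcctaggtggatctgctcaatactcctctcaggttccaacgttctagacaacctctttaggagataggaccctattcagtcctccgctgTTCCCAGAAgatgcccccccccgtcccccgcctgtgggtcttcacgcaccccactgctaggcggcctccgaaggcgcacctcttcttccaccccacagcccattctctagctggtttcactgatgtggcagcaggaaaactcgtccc
Psme1: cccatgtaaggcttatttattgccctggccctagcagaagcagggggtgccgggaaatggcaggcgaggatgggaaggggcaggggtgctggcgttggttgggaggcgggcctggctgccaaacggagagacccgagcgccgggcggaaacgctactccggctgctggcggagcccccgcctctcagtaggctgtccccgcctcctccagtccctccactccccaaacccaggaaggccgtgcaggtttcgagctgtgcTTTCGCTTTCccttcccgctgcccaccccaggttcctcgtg
Psmb5: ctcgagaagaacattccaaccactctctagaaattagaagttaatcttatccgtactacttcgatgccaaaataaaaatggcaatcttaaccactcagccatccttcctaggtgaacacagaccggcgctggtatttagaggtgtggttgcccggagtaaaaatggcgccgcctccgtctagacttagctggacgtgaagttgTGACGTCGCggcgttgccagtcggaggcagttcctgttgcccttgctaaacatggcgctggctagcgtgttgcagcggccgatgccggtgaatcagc
Psmb6: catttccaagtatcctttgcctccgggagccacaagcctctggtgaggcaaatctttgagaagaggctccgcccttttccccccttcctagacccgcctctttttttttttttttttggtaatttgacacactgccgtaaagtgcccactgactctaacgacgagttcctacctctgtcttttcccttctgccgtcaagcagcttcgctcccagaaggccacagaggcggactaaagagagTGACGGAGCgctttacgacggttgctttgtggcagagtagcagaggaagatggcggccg
These windows lie at chr17:34187281-34187580 (minus strand) for Psmb9, chr17:34197945-34198244 (plus) for Psmb8, chr14:55578244-55578543 (plus) for Psme1, chr14:54617946-54618245 (minus) for Psmb5 and chr11:70525107-70525406 (plus) for Psmb6. Of the 46 members, 39 had a promoter entry. The core of the interferon-stimulated element (GAAA, any 2 bases, GAAA) was found on either strand in 4 of the 39, and in 3.44% of all 32851 promoters. Those 4 were Psme1, the core gene Psmb3, the 19S gene Psmd4 and the assembly chaperone Psmd9. TTCNNNGAA, the gamma-activated site, was found in 2 of the 39, Psmb8 and the 19S gene Psmd2, against 8.3% of all promoters. TGACNNNGC, the antioxidant response element bound by factors that also drive proteasome genes, was found in 6 of the 39, against 12.4% of all promoters. Those 6 were Psmb5, Psmb6, Psmc6, Psmd12, Psmd9 and Psme4. None of these 3 marked motifs was found in the Psmb9 window, which holds CCAAT on the other strand. A match is a description of the letters only.

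Total counts per library ran from 0.606 M to 32.4 M, with a median of 8.44 M, and the 46 members took 0.424% to 0.689% of the counts of a brain library and 0.315% to 0.418% of a liver library. A marker gene of the labelled tissue ranked highest in that tissue for 12 of 16 tissues and among the 3 highest for 15, while entorhinal cortex reached rank 5. Ttr, the choroid plexus marker, was highest in corpus callosum and ranked 3 of 16 tissues in the choroid plexus libraries. The summed choroid plexus markers ran from 150 to 15670 CPM within choroid plexus and from 9.02 to 18030 CPM within corpus callosum. No library was a copy of another (357 pairs of the same region and treatment, lowest chi-square per degree of freedom 1.29). Some libraries stood apart. In the pons library of aDR mouse 67, the 10 most abundant genes took 23.4% of the counts, against 5.7% to 7.1% in pons of the other aDR and AL mice. Libraries also differed in how levels depended on transcript length, measured as the slope of each gene's log2 deviation from its region's mean on log2 exon length. This length slope ran from −0.237 to 0.135 over 229 brain libraries with a median of 0.000268, and its lowest values were those of caudate putamen aDR 64 (−0.237), choroid plexus YMP 77 (−0.183) and pons aDR 64 (−0.181). The constitutive core genes had a median exon length of 2335 bases (899 to 4595), and their mean level went with the slope. Across libraries, as deviations from the group mean, Pearson's r was −0.809 in the diet experiment (131 libraries) and −0.662 in the plasma experiment (98 libraries). By gene, r in the diet experiment was −0.838 for the longest core gene, Psmb1, and −0.7 for the shortest, Psmb5. These libraries share mice and depth, so r is given as a description. For the 19S genes (median 2820 bases) r was −0.394 and −0.537. The immunoproteasome genes (median 3381 bases) are longer by that measure, and for them r was −0.556 and −0.717.

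Levels of different genes were compared as CPM per kilobase of exon, averaged over the brain regions of AL mice. CPM is the count scaled to the library's total after that total is multiplied by the library's TMM factor. A printed CPM is thus not a share of the library's raw counts. The 14 core genes lay between 22.1 and 131 CPM per kb with a median of 54.9, and the 17 genes of the 19S particle lay between 20.5 and 191 with a median of 47.5. Per kb, Psmc5, a 19S ATPase, was the most abundant member at 191 CPM, followed by Psmb5, the chymotrypsin-like core protease, at 131. In CPM without length, Psmd2 stood at 290 and Psmc5 at 266. The immunoproteasome genes were far lower in brain: Psmb8 stood at 2.73, Psmb9 at 0.842 and Psmb10 at 17.1 CPM per kb. The PA28 genes stood at 16.7 (Psme1) and 16.2 (Psme2), and Psme4 at 2.7 CPM per kb.

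Each inducible gene can be read against the constitutive gene whose place it takes. In AL brain regions, Psmb8 made up 1.32% (motor cortex) to 2.93% (the region labelled SVZ) of the sum of Psmb8 and Psmb5 per kb, with a median of 2.27%. Psmb9 made up 0.717% to 1.61% of its sum with Psmb6. Psmb10 made up 31.6% (caudate putamen) to 52.3% (motor cortex) of its sum with Psmb7. By this measure it alone of the 3 inducible genes approached the level of its counterpart in brain. The shares rest on exon lengths that differ within pairs: 3381 and 899 bases for Psmb8 and Psmb5, 3660 and 1872 for Psmb9 and Psmb6, and 1705 and 3421 for Psmb10 and Psmb7. In CPM without length, over AL brain regions, Psmb8 stood at 9.24 against 117, Psmb9 at 3.08 against 157 and Psmb10 at 29.2 against 75.5. In AL liver the shares were 17.6% ± 3.97 for Psmb8, 10.7% ± 3.91 for Psmb9 and 57.5% ± 5.18 for Psmb10 (SD, n = 4). mRNA shares of this kind say nothing of assembled particles.

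Across brain regions, levels of most members differed, and most members had similar orders of regions in both sets of control mice. In AL females, 45 of the 46 members differed between regions by edgeR's quasi-likelihood F test at an adjusted p under 0.05, where 98.1% of all genes did, and in PBS males 43 did, where 96.1% of all genes did. The counts of members are thus near those of all genes, and size and direction carry the description. Among the 44 members with a mean of at least 1 CPM, the range from lowest to highest region had a median of 0.647 on the log2 scale in AL and 0.643 in PBS mice. The correlation of region means between AL and PBS mice, over 15 regions, had a median of 0.913 (from 0.429 for Psma3 to 0.99 for Psmd12), and 27 of the 44 had the same highest and 23 the same lowest region. The medulla was the highest region for 24 members in AL and 21 in PBS mice, and the olfactory bulb the lowest for 18 and 26.

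The 20S core and the 19S particle were both high in the medulla. Against the mean of the other 14 regions, 13 of the 14 core genes were called higher there in AL mice (median log2 difference 0.367) and 12 in PBS mice (0.313), and 14 and 15 of the 17 genes of the 19S particle were (0.251 and 0.318), with none lower. Of all genes, 31.9% (AL) and 30.2% (PBS) were called higher in the medulla, and over all regions and both directions 47.6% and 41.3% of single-region tests of all genes were called. The mean of the 19S genes was highest in the medulla in 4 of 4 AL and 4 of 4 PBS mice, while the mean of the core genes was highest there in 3 and 3. In the neighbouring pons, 9 and 13 genes of the 19S particle and 4 and 8 core genes were called higher in AL and PBS mice, against 28.9% and 21.8% of all genes. The 4 core genes in AL pons (of 14) are near that background.

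The olfactory bulb held the low end, above all for the 19S particle. There 16 of its 17 genes were called lower in AL mice (median −0.379) and 16 in PBS mice (−0.406), against 33.4% and 30% of all genes, and its mean was lowest in the bulb in 4 of 4 mice of each set. Of the core genes, 8 (AL) and 12 (PBS) of 14 were called lower, and 2 were called higher in AL and none in PBS mice. The cerebellum was low as well, with 12 genes of the 19S particle called lower in each set and 8 (AL) and 6 (PBS) core genes, against 31.6% (AL) and 28.7% (PBS) of all genes.

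**Figure D1:**
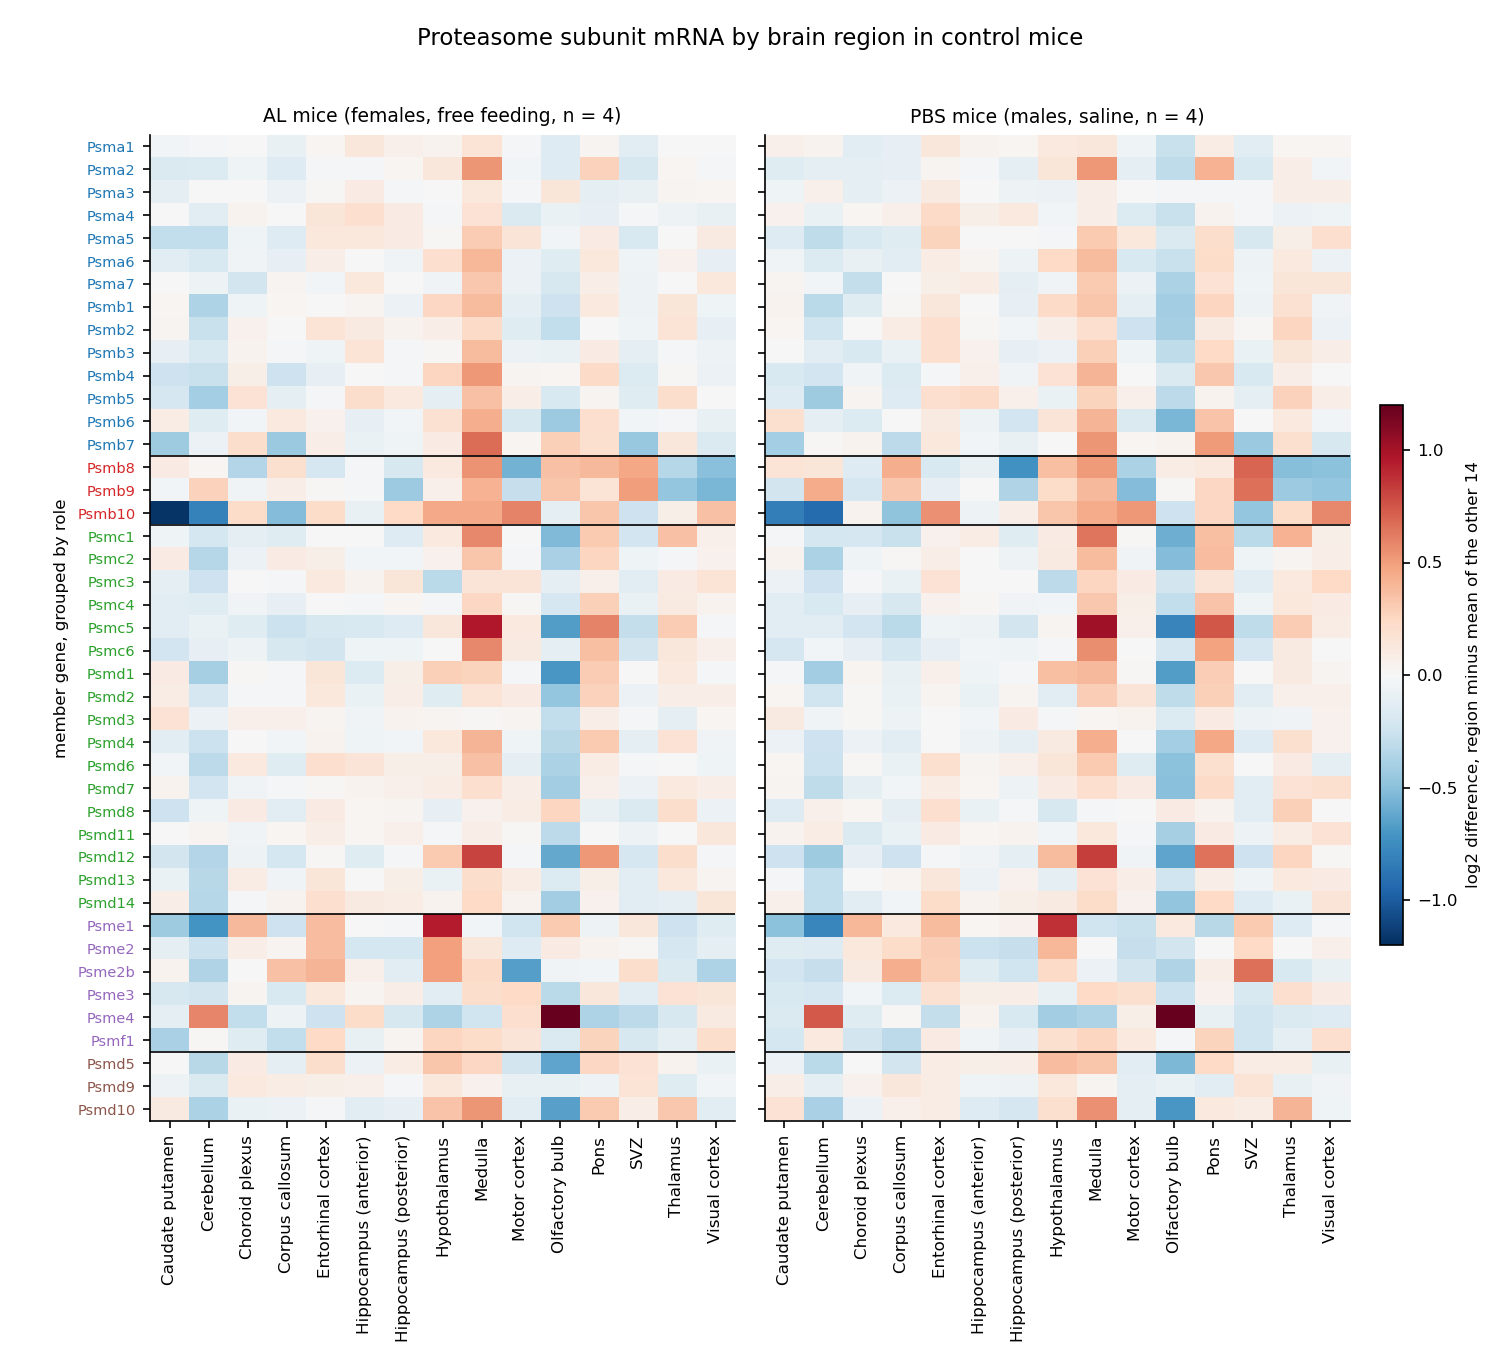
Log2 difference between each region (columns) and the mean of the other 14, for each member (rows, grouped by role), in 4 AL females and 4 PBS males; red is higher, blue lower, and colours stop at 1.2. The medulla column is red through the core and 19S rows, the olfactory bulb column is blue through the 19S rows, and the rows of Psmb10, Psme1 and Psme4 follow other orders.

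Psmc5 and Psmd12, a non-ATPase subunit of the 19S lid, showed this order most strongly. Psmc5 stood at 497, 504, 485 and 430 CPM in the medulla of AL mice 63, 66, 68 and 69, and at 167, 167, 185 and 164 CPM in their olfactory bulbs. In PBS mice 72, 76, 80 and 84 it stood at 456, 483, 555 and 505 CPM in the medulla and 156, 161, 157 and 160 CPM in the bulb. No bulb library reached the level of any medulla library. Against the other regions, Psmc5 was higher in the medulla by 0.96 ± 0.05 (log2, SE) in AL mice (adjusted p = 3.26e-21) and by 1.01 ± 0.05 in PBS mice (adjusted p = 2.59e-19), and lower in the bulb by differences of −0.67 and −0.79. Psmd12 stood at 214 to 233 CPM in the medulla of AL mice and 88.1 to 98.3 CPM in their bulbs, a difference from the other regions of 0.81 ± 0.05 in the medulla. At the flat end were Psmd9, Psma1 and Psma3, whose region means spanned 0.277, 0.289 and 0.289 on the log2 scale in AL mice.

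The constitutive proteases followed the core. Psmb5 was higher in the medulla (0.35 AL, 0.27 PBS) and lower in the cerebellum (−0.40 and −0.42), Psmb6 was higher in the medulla (0.44 and 0.41) and lower in the bulb (−0.44 and −0.55), and Psmb7 was higher in the medulla (0.67 and 0.53) and lower in the SVZ (−0.46 and −0.45).

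Cell composition and transcript length moved with these regions. In the medulla, 4 of 4 oligodendrocyte markers were called higher (median 1.68 in AL and 1.7 in PBS mice) and 4 of 5 neuron markers lower. In the olfactory bulb, 4 of 4 oligodendrocyte markers were called lower (−1.42 and −1.56). In bulk tissue, a different share of a cell type and a different amount of RNA per cell cannot be told apart, and the part of cell composition in these differences was not tested. Levels in the medulla also fell with transcript length over all genes (slope −0.125 in AL and −0.128 in PBS mice). With that trend removed, 14 of 14 core genes (median 0.22) and 16 of 17 genes of the 19S particle (0.167) were still above 0 in AL medulla, and the 19S median in the bulb was −0.317 (AL) and −0.368 (PBS).

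The 3 immunoproteasome genes did not share a regional order. By mean level Psmb9 was highest in the SVZ in both sets of controls, and Psmb8 in the medulla in AL and in the SVZ in PBS mice. Psmb8 stood at 12.3, 8.82, 10.8 and 15.7 CPM in the SVZ of AL mice 63, 66, 68 and 69 and at 14.2, 14.9, 13 and 11.6 CPM in that of PBS mice 72, 76, 80 and 84, against 5.26, 5.55, 7.74 and 5.83 CPM and 10.2, 6.78, 5.18 and 5.04 CPM in motor cortex. SVZ and motor cortex did not overlap in either set. Psmb8 was called higher in the SVZ (0.47 ± 0.15, adjusted p = 0.00872 in AL; 0.70 ± 0.15, adjusted p = 0.000163 in PBS, edgeR) and in the medulla (0.54 and 0.51), and lower in visual cortex (−0.50 and −0.49) in both sets. Without PBS mouse 84, its medulla difference in PBS mice was not called (0.40, adjusted p = 0.0646). Its lower level in motor cortex was called in AL (−0.57, adjusted p = 0.00492) but not in PBS mice (−0.38, adjusted p = 0.0688).

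Psmb9 stood at 2.79, 4.51, 3.97 and 5.36 CPM in AL SVZ and 4.31, 4.13, 4.77 and 3.61 CPM in PBS SVZ. The SVZ was the region where it was called in both sets (0.50 ± 0.20, adjusted p = 0.0379; 0.66 ± 0.27, adjusted p = 0.0468, edgeR), and its F test across regions was called in AL but not in PBS mice (adjusted p = 0.191). Its exons overlap those of Tap1 on the other strand, and the libraries carry no strand, so reads of the 2 genes cannot be told apart there. Microglia markers were called higher in the SVZ for 5 of 5 genes (median 0.337 and 0.332), as were 3 of 3 ependyma markers, 5 of 5 choroid plexus markers (medians 5 and 7.03) and 5 (AL) and 9 (PBS) of 10 genes of MHC class I antigen processing, while 9 and 10 genes of the 19S particle were called lower. Over all regions and both directions, 47.6% (AL) and 41.3% (PBS) of single-region tests of all genes were called. The share for the SVZ alone is not given, so these counts are a description only. The part of these cells in the Psmb8 and Psmb9 levels was not tested.

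Psmb10 had the widest range among the 44 members with at least 1 CPM, 1.65 on the log2 scale in AL mice, and ran differently. It stood at 48.7, 37.2, 39.7 and 39.2 CPM in motor cortex of AL mice and 39.4, 41.1, 39.5 and 31 CPM in that of PBS mice, against 10.4, 16, 10.5 and 15.5 CPM and 17.9, 20.2, 14.9 and 11.8 CPM in caudate putamen. Each of these motor cortex libraries was above each of the caudate putamen libraries. Psmb10 was higher in motor cortex than in the other regions (0.60 ± 0.09, adjusted p = 3.48e-07 in AL; 0.52 ± 0.11, adjusted p = 0.000134 in PBS) and lower in caudate putamen (−1.18 ± 0.11, adjusted p = 3.79e-13; −0.83 ± 0.12, adjusted p = 3.76e-07), cerebellum (−0.81 and −0.92), corpus callosum (−0.52 and −0.49) and SVZ (−0.25 and −0.47). In motor cortex and SVZ the signs of Psmb10 and Psmb8 were thus opposite.

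**Figure D2:**
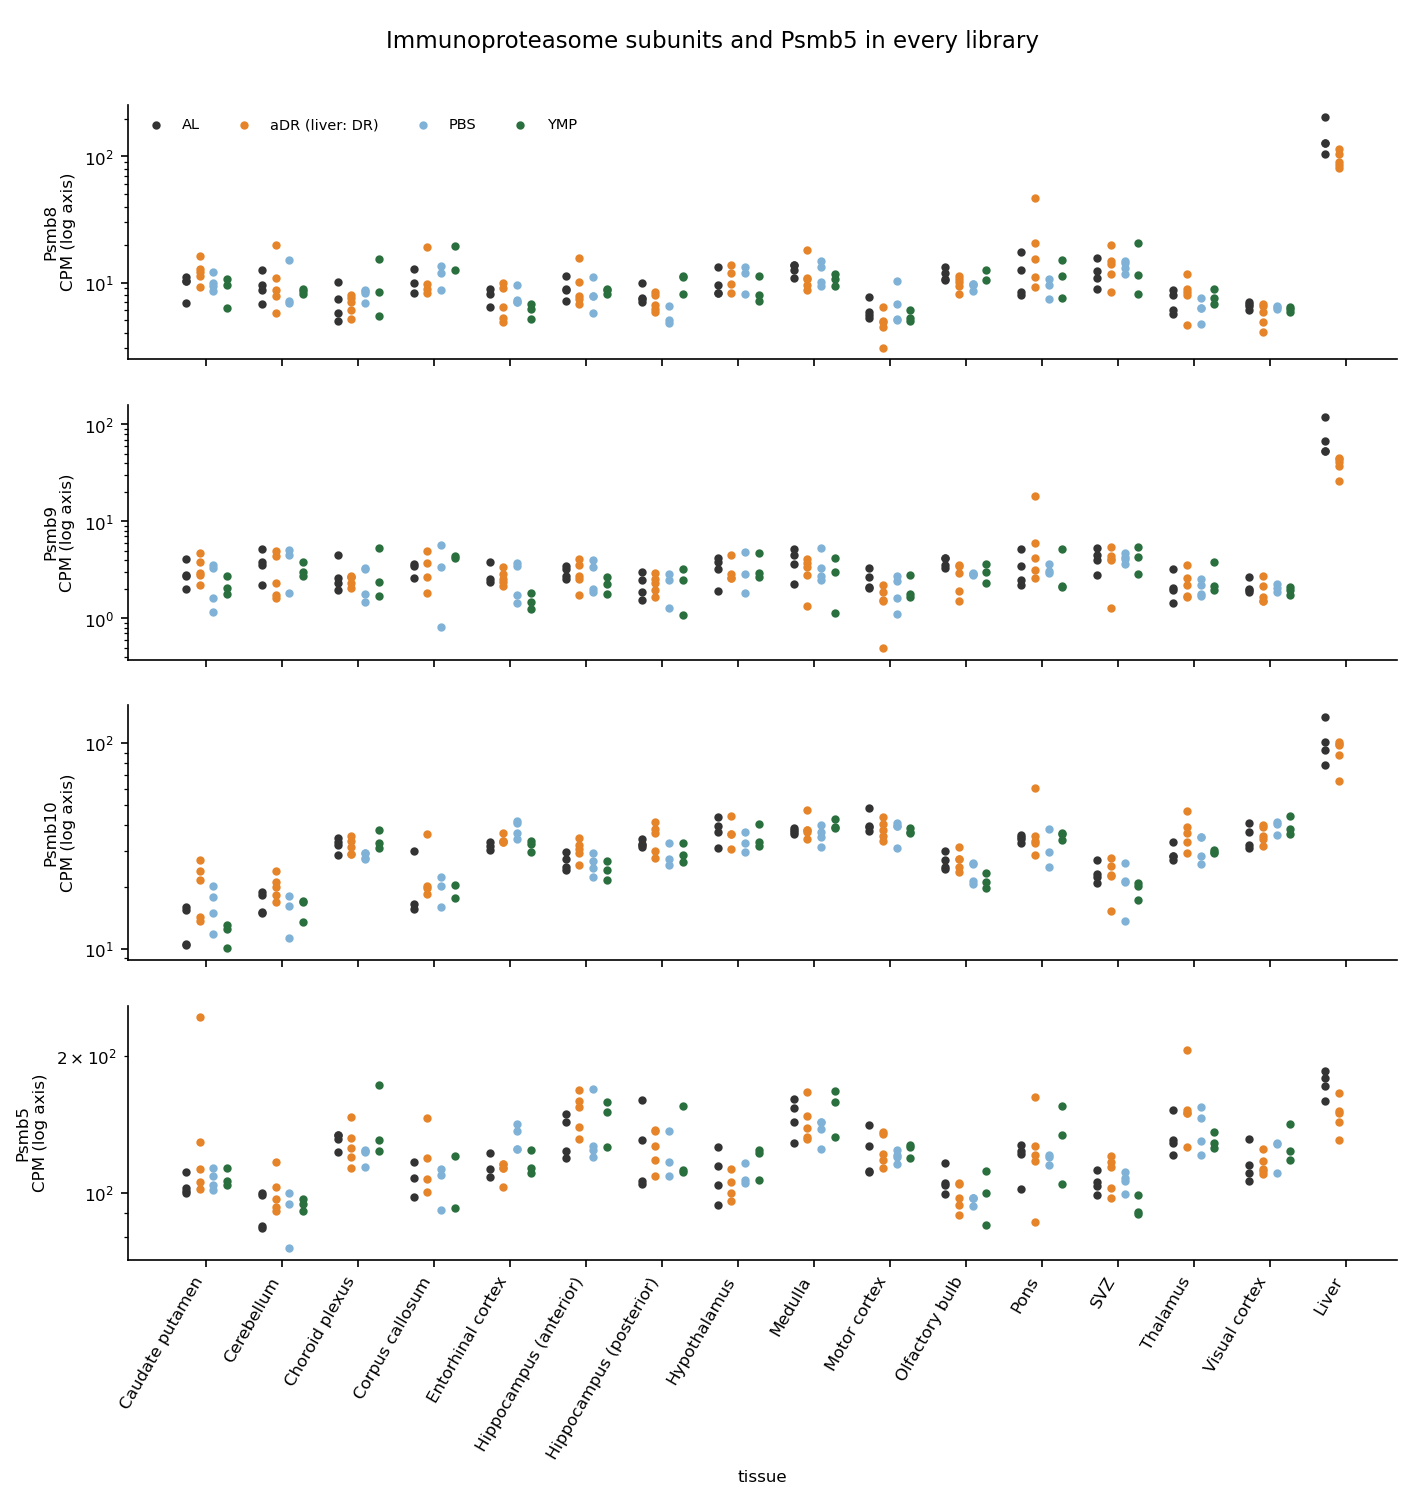
Level (CPM, log axis) of Psmb8, Psmb9, Psmb10 and the constitutive Psmb5 in every library, by tissue (horizontal axis) and treatment (colour); each point is 1 mouse. Liver points of Psmb8 and Psmb9 lie above all brain points, Psmb10 is lowest in caudate putamen and cerebellum, and the aDR point high in the pons for Psmb8 and Psmb9 is mouse 67.

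Among the activators, the PA28 genes peaked in the hypothalamus. Psme1 stood at 67, 60, 66 and 72.6 CPM in the hypothalamus of AL mice 63, 66, 68 and 69 and at 23, 23.4, 25.3 and 20.2 CPM in their cerebellum. In PBS mice 72, 80 and 84 it stood at 57.4, 66.6 and 65.4 CPM and 27.4, 19.2 and 19.3 CPM. The hypothalamus was above the cerebellum in each of these mice. Psme1 was higher in the hypothalamus than in the other regions by 0.95 ± 0.10 (adjusted p = 3.55e-11) and 0.88 ± 0.11 (adjusted p = 2.04e-08), and its partner Psme2 by 0.49 and 0.40. Psme1 was also higher in the choroid plexus (0.39 and 0.40) and entorhinal cortex (0.37 and 0.38) and lower in the cerebellum (−0.72 and −0.78) and caudate putamen (−0.43 and −0.49). Psme4, the gene of PA200, peaked in the olfactory bulb, where the 19S genes were low. It stood at 45.9, 52.7, 54 and 50.5 CPM in the bulb of AL mice and 55.1, 55.4, 52.6 and 49.8 CPM in that of PBS mice, 1.28 ± 0.07 (adjusted p = 2.34e-22) and 1.37 ± 0.07 (adjusted p = 1.52e-21) above the other regions on the log2 scale.

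The tissue-specific core genes were near 0. Psma8 had at least 1 count in 216 of 229 brain libraries, with at most 51 counts in a library. Psmb11 had a count in 108 of 229 brain libraries and in 0 of 9 liver libraries, where up to 3 counts per library would be allowed. Of its 471 brain counts, 254 came from the 16 olfactory bulb libraries, 15 of which held at least 1. In bulb the counts were 24, 21, 14 and 30 in AL mice 63, 66, 68 and 69 and 4, 15, 31 and 12 in PBS mice 72, 76, 80 and 84, at most 4.13 CPM. Outside the bulb, no brain library held more than 9 counts, which is below the minimum count of the expression filter. Psmb11 could thus enter the test only through its bulb counts. The difference between the bulb and the other regions was called in AL (adjusted p = 2.52e-13) and PBS mice (adjusted p = 5.03e-10, edgeR). Because the filter had already selected the gene for its bulb counts, these p-values add no support, and the counts are a description only. The size of the difference was fitted against regions near 0 and is not given.

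In liver, sequenced only in the diet experiment, the core and the inducible genes were higher than in brain after TMM scaling, while the 19S particle was not. The TMM factors of the AL livers were 0.521 to 0.585 over all 238 libraries, and a factor below 1 raises a library's values. As a share of raw counts, the 46 members took less of a liver library (0.315% to 0.418%) than of a brain library (0.424% to 0.689%). The core and 19S differences thus depend on the scaling, and plain library sizes were not tried for them. Against the mean of 15 brain regions in AL mice, 40 of 46 members were called (30 higher, 10 lower), where 86.2% of all genes were called (6147 higher, 7539 lower, median −0.28). The fit gave Psmb11, at 0 in liver, no usable value. Of the core genes, 14 of 14 were higher, with a median log2 difference of 0.84 from 0.34 (Psma2) to 1.61 (Psma4), whereas of the 19S genes 6 were higher and 7 lower with a median of 0.03. Psmb5, Psmb6 and Psmb7 were higher by 0.61, 1.04 and 1.04. Psmc5, the most abundant member in brain per kb, was lower in liver by a difference of −0.97 ± 0.06. Psme3, Psmd5 and Psmd2 differed by −0.96, −0.62 and −0.58.

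The inducible genes differed most. Psmb8 stood at 128, 104, 207 and 127 CPM in the livers of AL mice 63, 66, 68 and 69, Psmb9 at 52.7, 53.2, 120 and 66.8 CPM, and Psmb10 at 78.2, 101, 134 and 92.2 CPM. Mouse 68 was highest for each. Psmb9 was 4.63 ± 0.13, Psmb8 4.01 ± 0.11 and Psmb10 1.90 ± 0.09 above brain on the log2 scale, and PA28 followed with 3.05 ± 0.08 for Psme1, 2.98 for Psme2 and 3.19 for Psme2b, a single-exon near copy of Psme2 whose reads cannot be told apart from it with certainty. The gene list for MHC class I antigen processing was higher for 10 of 10 genes (median 3.55). Blood markers (3 of 3 higher, median 5.82) and markers of lymphocytes and myeloid cells (4 of 4 tested, 4.47) were higher in liver too, and their part in these levels was not tested. Liver levels fell with transcript length over all genes (slope −0.519). With that trend removed, the medians were 1.11 for the core, 0.304 for the 19S particle (12 of 17 above 0) and 4.36 for the immunoproteasome.

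**Figure D3:**
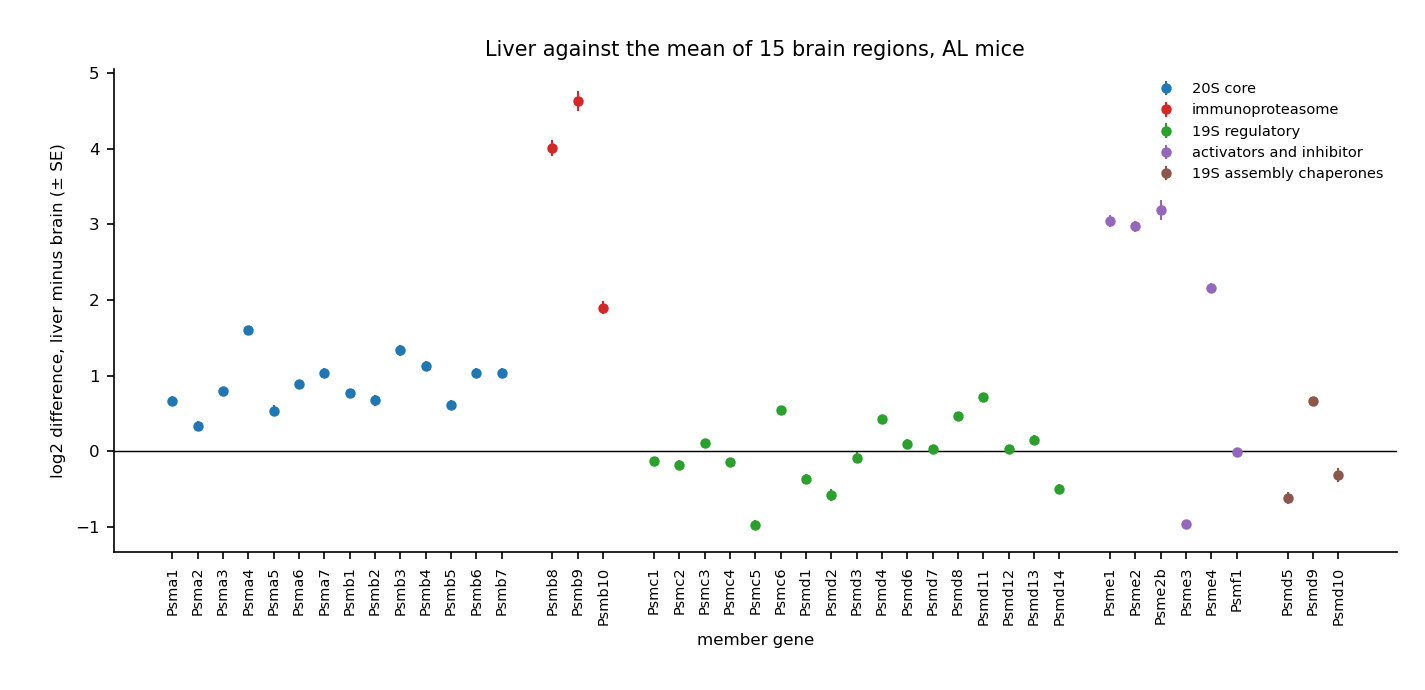
Log2 difference between liver and the mean of 15 brain regions in AL mice (4 livers), with its standard error, for each member grouped by role; Psma8, Psmb11 and Psmc3ip are not drawn. Core genes lie between 0.34 and 1.61, 19S genes scatter around 0, and Psmb8, Psmb9, Psme1 and Psme2 lie near or above 3.

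Dietary restriction changed no member past the threshold in any single tissue. Over liver and 15 brain regions, 0 of 709 tests of members were called by edgeR's quasi-likelihood test, where 0.0616% of all tests were, and DESeq2 called 0. An unadjusted p under 0.05 was reached by 32 of the 709 (4.51%), fewer than the 6.39% over all genes, with 25 of the 32 higher under restriction. The smallest p values were those of Psmf1 in visual cortex (0.23, adjusted p = 0.282), Psmc3 in cerebellum (0.17, adjusted p = 0.199) and Psmb9 in liver.

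In liver the inducible genes lay lower under restriction. Psmb9 stood at 45.5, 40.7, 37.1, 44.3 and 26.4 CPM in DR mice 61, 62, 64, 65 and 67, all below the lowest AL liver, with a log2 difference of −0.90 ± 0.27 (adjusted p = 0.267, edgeR). AL mouse 68 carried much of these sizes: without it the difference was −0.53 for Psmb9, −0.30 for Psmb8 and 0.03 for Psmb10, and the immunoproteasome median was −0.295 in place of −0.556. Psmb8 stood at 114, 81.3, 90.1, 104 and 85 CPM, overlapping the AL livers, with −0.56 ± 0.21 (adjusted p = 0.422). Like Psmb9, the 19S gene Psmd7 did not overlap, at 107.5 to 128.3 CPM in DR and 132.6 to 153.5 CPM in AL livers. The share of all genes without overlap in liver is not given, so these separations have no background. Psmb10 differed by −0.15 and Psmb5, Psmb6 and Psmb7 by −0.21, −0.02 and −0.11, with adjusted p from 0.692 to 0.992. Psme1 and Psme2 differed by −0.18 and −0.29 (−0.04 and −0.19 without mouse 68). Sums of blood and immune cell markers had lower ranges in DR livers, but for each sum the ranges of AL and DR livers overlapped. Summed blood markers ran from 134 to 287 CPM in AL and 82.7 to 144 CPM in DR livers, summed microglia markers from 156 to 396 and 97.7 to 250 CPM, and summed lymphocyte and myeloid markers from 60.2 to 96.2 and 47.3 to 94.3 CPM. Mouse 68 was highest of all 9 for each sum, and the part of these cells was not tested. The medians were −0.127 for the core (14 of 14 below 0) and −0.104 for the 19S particle (16 of 17 below 0), against 0.02 over the 11815 genes tested, and none passed the test (3 of 45 members tested had an unadjusted p under 0.05, against 9.09% of all genes).

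In brain the direction was mostly the opposite, and the sizes were small. The median of the core genes was above 0 in 13 of 15 regions and that of the 19S genes in 14 of 15, and the olfactory bulb was below 0 for both (−0.09 and −0.04). The highest core median, 0.381 in caudate putamen, rested largely on the library of mouse 64, which had the lowest length slope: without it the median was 0.171, with 14 of 14 genes above 0. In pons, where mouse 64 had a low length slope as well, the core median was 0.139 with and 0.0552 without it (14 and 10 of 14 genes above 0). In the caudate putamen library of mouse 64, Psmb6 stood at 460 CPM against 157 to 201 in the other 8 caudate putamen libraries of the diet experiment, and Psmb5 at 243 against 99.6 to 129. Among longer transcripts, Psmb7 (3421 bases) stood at 105 against 50.8 to 76.9. The 19S transcript Psmd1 (7265 bases) stood at 169 against 246 to 269, Psmc6 (3498) at 59.9 against 100 to 118, and Psmd2 (4038) at 284 against 280 to 324. The immunoproteasome median was above 0 in 7 regions, and its highest value, 0.841 in pons, was 0.255 without mouse 67. The Psmb8 level of that mouse in pons was 47.1 CPM against 9.14 to 20.5 in the other aDR and 7.91 to 17.5 in the AL pons libraries. That library also held summed lymphocyte and myeloid markers at 34 CPM (6.49 to 13.8 in the other 8), oligodendrocyte markers at 6481 CPM (21180 to 33350) and neuron markers at 2493 CPM (3682 to 7253), and their part in its Psmb8 level was not tested. By gene, the diet difference ran from −0.37 in motor cortex to 0.84 in pons for Psmb8, from −0.65 to 1.02 in the same regions for Psmb9, and from −0.08 in motor cortex to 0.62 in caudate putamen for Psmb10. Psmb5 ran from −0.12 in the olfactory bulb to 0.43 in caudate putamen, and Psme1 from −0.13 in the medulla to 0.38 in caudate putamen. Without the caudate putamen library of mouse 64 these highest values were 0.51 for Psmb10, 0.14 for Psmb5 and 0.15 for Psme1, and without the pons library of mouse 67 those of Psmb8 and Psmb9 were 0.28 and 0.26. For none of these 5 genes was an adjusted p under 0.05 reached in a region.

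**Figure D4:**
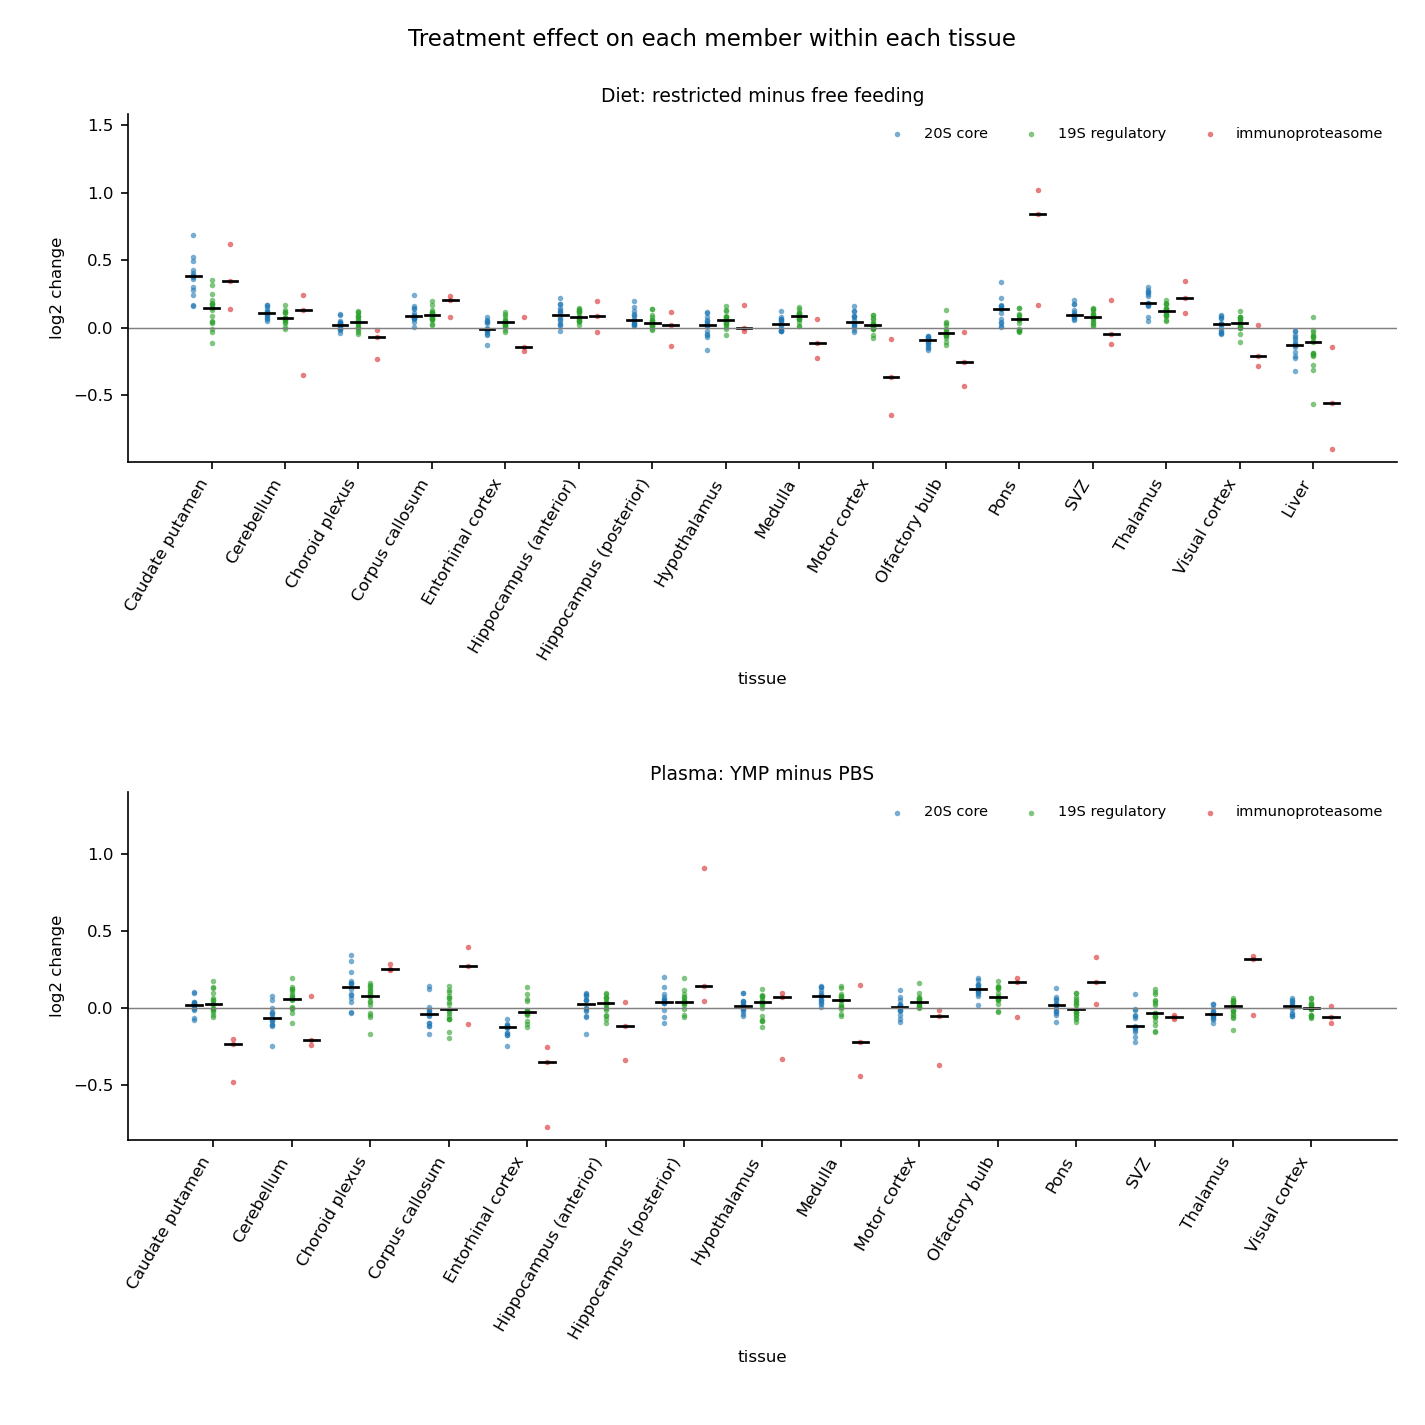
Log2 change of each core, 19S and immunoproteasome gene within each tissue, for diet (top, with liver) and plasma (bottom); points are genes and bars are medians. Core and 19S bars lie mostly just above 0 for diet in brain and below 0 in liver, and immunoproteasome points scatter most.

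Taking the 15 regions of a mouse together gave 1 value per mouse, tested with limma. All constitutive genes then lay slightly higher under restriction, 14 of 14 in the core (median log2 change 0.0694) and 17 of 17 in the 19S particle (0.0553), whereas 46.6% of the 15616 genes tested lay higher. None of the 46 members was called, where 1.75% of all genes were. An unadjusted p under 0.05 was reached by 17 of 31 constitutive genes (54.8%), against 16.8% of all genes. The values of aDR and AL mice did not overlap for 13 of 46 members (28.3%), against 8.3% of all genes, and all 13 were higher under restriction. Subunit genes vary together, so these counts are not those of independent genes: the median correlation between pairs of the 31 constitutive genes over libraries was 0.542.

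Psmb2, a core beta subunit, had the smallest p. As log2 deviations from the AL mean, its values were 0.0547, 0.162, 0.197, 0.125 and 0.157 in aDR mice 61, 62, 64, 65 and 67 and 0.00221, −0.0734, 0.0404 and 0.0308 in AL mice 63, 66, 68 and 69. The groups did not overlap. The change was 0.14 ± 0.03 (adjusted p = 0.0692, limma) and its direction held in 14 of 15 regions. Psmc2, a 19S ATPase, had values of 0.066, 0.113, 0.0922, 0.126 and 0.0622 against 0.0215, −0.00564, −0.00432 and −0.0116, a change of 0.09 ± 0.02 (adjusted p = 0.0716). Psma6, a core alpha subunit, changed by 0.09 ± 0.02 (adjusted p = 0.0827). Over the whole core, aDR mouse 61 (0.0116) lay below AL mouse 63 (0.0229), so the medians overlapped, while the 19S medians of the aDR mice (0.0347 to 0.0738) lay above those of the AL mice (−0.015 to 0.0163).

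Psmb5, Psmb6 and Psmb7 differed by 0.06, 0.09 and 0.08 (adjusted p = 0.37, 0.28 and 0.226, limma). Of the inducible genes, Psmb10 differed by 0.11 ± 0.03 (adjusted p = 0.104) with no overlap, its aDR values being 0.0859, 0.154, 0.14, 0.151 and 0.0364 and its highest AL value 0.0178. Psmb8 differed by 0.01 (adjusted p = 0.974) and Psmb9 by −0.13 (adjusted p = 0.672). For both, the mice of each treatment overlapped widely, from −0.127 to 0.358 in aDR and from −0.11 to 0.208 in AL mice for Psmb8. Psme1 and Psme2 differed by 0.04 and 0.07 (adjusted p = 0.753 and 0.446).

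The call, but not the direction, depended on how mice entered the fit. With all libraries kept and the mouse as a block, 12 members were called, all higher, with the smallest adjusted p for Psmc2 (0.000639), where 9.44% of all genes were called. That fit used a correlation of 0.0336 between libraries of 1 mouse. It thus weighted 131 libraries of 9 mice nearly as independent, and its p-values measure mostly the spread between libraries. Without mouse 67, 2 members were called, Psmb10 among them (0.13, adjusted p = 0.0413), and without its pons library alone 2 were called, Psmc2 among them (0.10, adjusted p = 0.0375). The share of all genes called is not given for these 2 fits, so their counts have no background. With each library's length trend removed, Psmb2 was called (0.13, adjusted p = 0.0234). This was 1 of 46 members (2.17%), near the 1.72% of all genes called. In that fit the core median was 0.0599 and the 19S median 0.0547, with 14 of 14 and 17 of 17 above 0. Over all alternatives run, the core median lay between 0.0533 and 0.0782 and the 19S median between 0.0401 and 0.0613, while the immunoproteasome median, 0.0111, lay between −0.076 and 0.0817 and was below 0 with plain library sizes. The mean length slope of a mouse was −0.0066 in aDR and 0.00786 in AL mice (two-sided exact permutation p = 0.103 over 126 splits, smallest possible 0.00794). Beside this, 3 of 4 endothelium markers were called lower under restriction (Kdr −0.56, adjusted p = 0.00262) as was the microglia marker Cx3cr1 (−0.13, adjusted p = 0.0458). Blood markers lay higher for 3 of 3 genes (median 1.01, 1 of 3 with an unadjusted p under 0.05, none called). The part of these cells in the members' values was not tested.

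**Figure D5:**
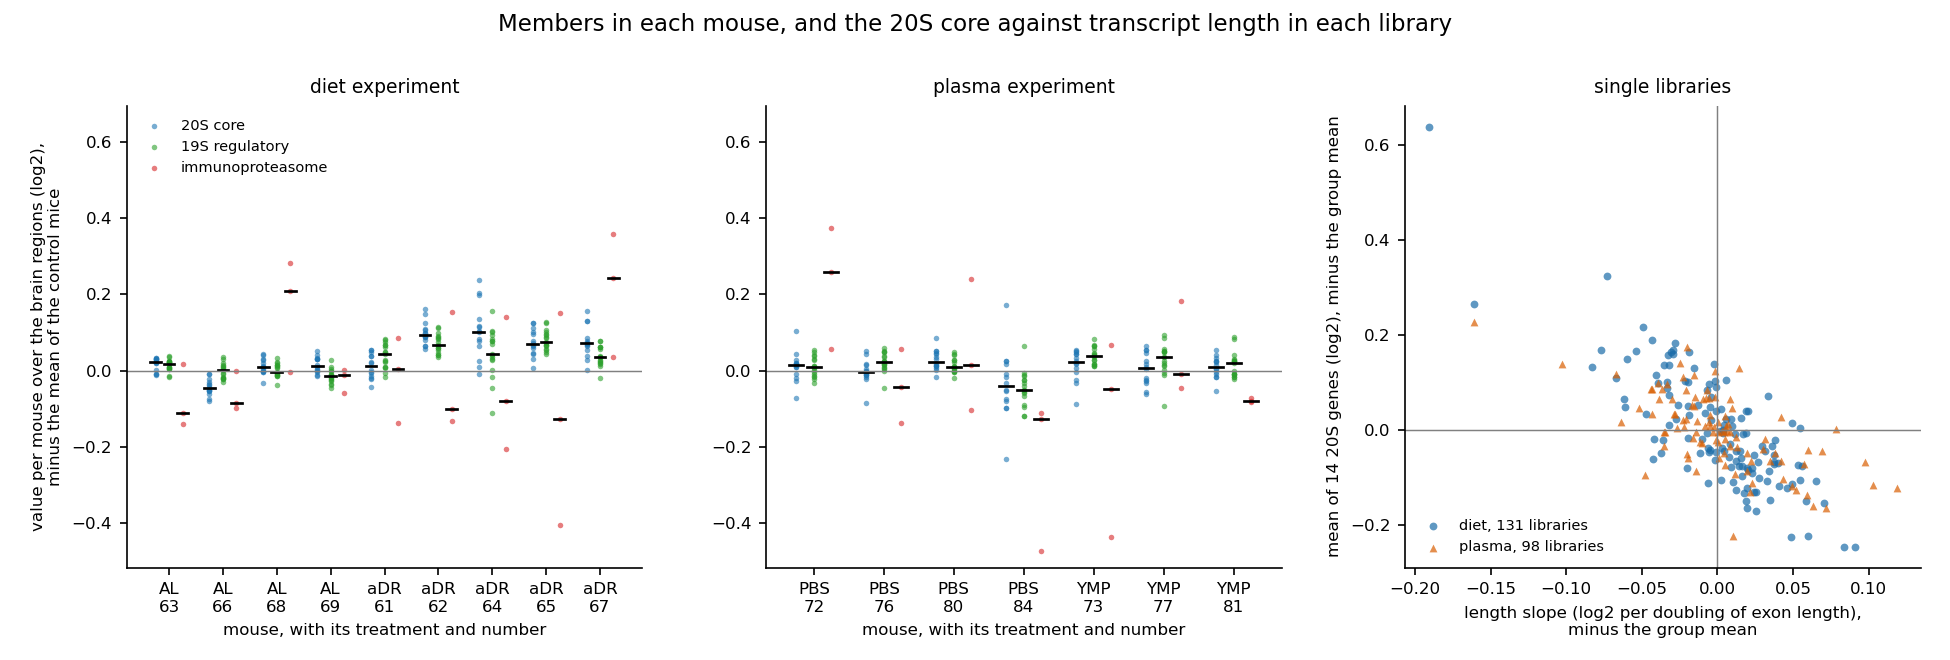
Left and middle: value of each core, 19S and immunoproteasome gene (points) and the median (bars) per mouse over its brain regions, as log2 deviation from the mean of the control mice, for diet and plasma. Right: mean of the 14 core genes against the length slope in each brain library, both minus the group mean; libraries with lower slopes had higher core levels, and the point at the top left is caudate putamen aDR 64.

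No member passed the threshold under young plasma either. Within the 15 regions, 0 of 664 tests of members were called by edgeR, where 0.0127% of all tests were, and 18 (2.71%) had an unadjusted p under 0.05 against 6.11% of all genes; DESeq2 called 0. The smallest p was that of Psmb8 in posterior hippocampus, which stood at 11, 8.1 and 11.3 CPM in YMP mice 73, 77 and 81 and 6.55, 4.79 and 5.03 CPM in PBS mice 76, 80 and 84. These did not overlap (0.91 ± 0.21, adjusted p = 0.9996, edgeR). The differences of Psmb9 ran from −0.78 in entorhinal cortex to 0.34 in thalamus and those of Psmb10 from −0.48 in caudate putamen to 0.25 in choroid plexus. Psma1 and Psmc1 in the olfactory bulb followed Psmb8 in p (0.20 and 0.18, adjusted p = 0.464 for both). Without PBS mouse 84, Psme1 in corpus callosum was called (−0.62, adjusted p = 0.0353): it stood at 44.4, 44.2 and 26.6 CPM in PBS mice 76, 80 and 84 and 30.3 and 29.7 CPM in YMP mice 77 and 81. Summed choroid plexus markers in the same libraries were 18030, 12850 and 5053 CPM against 9.02 and 20.6 CPM, and the choroid plexus markers Ttr, Kl and Kcne2 were called lower there with all mice kept (Ttr −12.72, adjusted p = 0.0204). The part of choroid plexus tissue in the Psme1 value was not tested.

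Over all regions of a mouse, limma called 0 of 46 members and 0% of all genes, and 1 member had an unadjusted p under 0.05. The core median was 0.00294 (8 of 14 above 0), the 19S median 0.0238 (16 of 17) and the immunoproteasome median −0.0449 (0 of 3), while 48.2% of all genes lay above 0. The core median was below 0 with plain library sizes (−0.0024), without PBS mouse 84 (−0.00766) and with the length trend removed (−0.0027), so it has no settled sign. YMP and PBS mice did not overlap for 4 members (8.7%), near the 10.1% of all genes. The smallest p was that of Psmd3, a 19S lid subunit, with values of 0.0632, 0.0927 and 0.0868 in YMP mice 73, 77 and 81 and 0.00791, 0.0355, 0.0233 and −0.0667 in PBS mice 72, 76, 80 and 84, a change of 0.08 ± 0.04 (adjusted p = 0.595). Psmd7 and Psma1 followed with 0.08 and 0.05 (adjusted p = 0.62 and 0.67). Psmb5, Psmb6 and Psmb7 differed by 0.03, 0.05 and −0.07, Psmb8, Psmb9 and Psmb10 by −0.11, −0.04 and −0.02, and Psme1 and Psme2 by −0.07 and −0.03. Psmb8 lay at −0.436 in YMP mouse 73 and at 0.182 and −0.0817 in YMP mice 77 and 81. The olfactory bulb library of mouse 73 was the shallowest of all (0.606 M counts), and the lowest Psmb8 share among the 3 YMP bulb libraries was 0. With the mouse as a block, Psmb8 differed by −0.03 and Psmb10 by 0.01. Psmb8 kept its sign there at a smaller size, and the sign of Psmb10 is not settled. With the mouse as a block, Psmd3 and Psmd7 were called (adjusted p = 0.0354 and 0.0447), where 3.08% of all genes were. That fit used a correlation of 0.0769 between libraries of 1 mouse and so weighted them nearly as independent. Beside these values, 5 of 5 choroid plexus markers lay lower in YMP mice (median −1.16, none called). The core median within choroid plexus, 0.138, was the highest of the 15 regions and rested on the library of YMP 77 with its low length slope: without it the median was −0.0126, with 6 of 14 genes above 0.

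No member's treatment effect was shown to differ between tissues. The interaction of region and diet was called for 0 members and 0.0128% of all genes, with the smallest p for Psmb7 (0.053), Psmd13 (0.0701) and Psmb11 (0.161), and the interaction of region and plasma for 0 members and 0.824% of all genes, with the smallest p for Psmb3 (0.135), Psmb8 (0.143) and Psmb10 (0.171). The difference between the diet effects in liver and brain was called for 0 members and 0.0705% of all genes, and 3 of 45 members tested had an unadjusted p under 0.05, against 7.99% of all genes. Psmd14, the 19S deubiquitinase, had the smallest p there (−0.63, adjusted p = 0.38, limma), and it stood at 95.4, 68.8, 104 and 99.5 CPM in AL livers and 70.4, 40.9, 53.2, 64.9 and 76.8 CPM in DR livers, which overlap. Psmb8 (−0.52, adjusted p = 0.573) and Psmb9 (−0.69, adjusted p = 0.59) followed.

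Other genes of the pathway were read from lists. For diet across regions, 0 of 11 assembly factors and further 19S parts, 0 of 15 genes of ubiquitin and its shuttle factors, 0 of 7 regulators of subunit transcription and 0 of 10 genes of MHC class I antigen processing were called, with medians of −0.0178, 0.0234, −0.023 and −0.00214. The closest was Ufd1, which helps to extract ubiquitinated proteins (0.11, adjusted p = 0.0541, limma), followed by Adrm1, a ubiquitin receptor of the 19S particle outside the symbol rule (0.11, adjusted p = 0.104). For plasma the same lists had medians of 0.027, 0.00815, −0.0107 and −0.0751, again with 0 called, and the MHC class I list lay lower for 10 of 10 genes, B2m among them (−0.15, adjusted p = 0.51). In liver against brain, 8 assembly genes were higher and 3 lower, 6 ubiquitin genes higher and 8 lower, and 6 regulators higher and 1 lower.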

How the data were processed

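Messenger RNA libraries (unstranded, Smart-Seq2 and Nextera XT, per the labels' protocols) of 15 brain regions and liver were deposited by the authors as 1 table of raw read counts for 21076 genes in 238 libraries, 537 of the rows without a count. Per the submitters' processing notes, Trim Galore 0.3.7, STAR 2.5.3a, DESeq2 and build GRCm38 were used. The counting program and annotation are not given in the sources used here.

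Counts were filtered (filterByExpr, minimum count 10, total 15), scaled by TMM and tested with edgeR 4.0.16 (quasi-likelihood F test, R 4.3.3) within each region (31 comparisons), across regions of control mice, for liver against brain and for the interaction of region and treatment. Effects across regions were tested on 1 value per mouse (log2 CPM with prior count 2, fitted on region and mouse, of which the mouse term was kept) with limma 3.58.1. P-values were adjusted (Benjamini-Hochberg) over all genes of a comparison and called under 0.05. DESeq2 1.42.0 was an alternative. Printed CPM use TMM factors over all 238 libraries. The tests were checked on simulated counts.

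Mouse numbers mark the same animal in every region, so they pair regions and never treatments. Deviations from group means correlated by 0.04 between libraries of 1 mouse and −0.0049 between mice in the diet experiment, and by 0.0717 and −0.012 in the plasma experiment. P-values of the tests within a region and of the limma tests on 1 value per mouse measure the spread between these mice. The edgeR fits across regions of control mice, of liver against brain and of the interaction had no mouse term. They took the libraries of 1 mouse as independent, so their p-values measure the spread between libraries.

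The members and gene lists were chosen with earlier results of these data known. Named in every comparison were Psmb8, Psmb9, Psmb10, Psmb5, Psmb6, Psmb7, Psme1 and Psme2, and, by rule, members past the threshold (over 8, the 4 largest rises and 4 largest falls) or else the 3 with the smallest p. Leaving out the pons library of mouse 67, the caudate putamen library of mouse 64 the olfactory bulb library of YMP 73, the choroid plexus library of YMP 77, the pons library of mouse 64 or the liver of AL mouse 68, the removal of the length trend (lowess on log2 exon length) and limma without a trend were chosen after seeing the data, as was the naming of Psmb11 counts. Lengths came from GENCODE M21 (46 of 46 members, 99.6% of genes tested in the diet experiment), promoters from RefSeq (GRCm38.p6). Exons of 14 members overlap another gene, and without strand their reads cannot be told apart.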

Additional observations from a re-analysis of the deposited data

Results flagged for a closer look

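Among 49 groups of 4 or 5 mice, taken over the named members' values per mouse in brain and levels in liver, 2 held a mouse far from the others, and chance marks about 1 group in 20. Psmb8 stood at 0.358 (log2, against the AL mean) in aDR mouse 67, and the other 4 aDR mice lay between −0.127 and 0.0047. This mouse carries the pons library in which the 10 most abundant genes took 23.4% of the counts. Psme2 stood at −0.19 in PBS mouse 84, and the other 3 PBS mice lay between 0.0431 and 0.0888. The mean length slope of mouse 84 was 0.0386, and Psmb6 (−0.232) and Psmb7 (0.173) deviated in it in opposite directions. No cause was tested for either mouse.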

How the results depend on the processing

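Of the counts and medians recomputed under the alternatives, 195 kept their direction and side of the threshold or stayed within 1.5 times, and 11 moved. Of the values of single members, 566 kept their call, 18 gained one and 1 lost it. The number of members called for diet across regions was 0, but 12 with the mouse as replicate block, 20 with no block, 2 without the pons library of aDR mouse 67, 1 with the length trend removed, and 0 to 2 leaving out each mouse in turn. For plasma across regions it was 0, but 2 with the mouse as replicate block and 6 with no block, which counts regions of 1 mouse as independent. The block fits came close to that, with correlations of 0.0336 (diet) and 0.0769 (plasma) between libraries of 1 mouse. For plasma within regions the number of members called was 0 to 1 leaving out each mouse in turn, the 1 being reached without PBS mouse 84. The block changed no other count by over 1.5 times. The core median for diet within caudate putamen was 0.171 without aDR mouse 64 (0.381 with it), and the immunoproteasome median in pons was 0.255 without aDR mouse 67 (0.841 with it). The core median for plasma within choroid plexus was −0.0126 without YMP mouse 77 (0.138 with it). The call lost was that of Psmb8 in PBS medulla, 0.40 without PBS mouse 84 (adjusted p = 0.0646, edgeR). Depth limits the lowest members most: Psmb9 averaged 3.08 CPM over AL brain regions, at a median depth of 8.44 M counts per library.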
